A study of Danio rerio with 24 samples.

Results

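Zebrafish embryos kept with oligomycin were compared with untreated embryos at 4 hours post fertilization (hpf). The 8 libraries were chosen by their titles, 4 for each group, out of 24 libraries in the series. The tested embryos were wild type of the TLAB strain and had lain in E3 medium with oligomycin at 1 µM from the moment they were collected after laying. The untreated embryos were of the same strain and age, from the same kind of medium without inhibitor, and were kept in parallel. The other 16 libraries came from both treatments at 3 hpf and from embryos exposed to actinomycin D at 10 µg/ml, an inhibitor of transcription, at 3 and 4 hpf. Here the actinomycin D libraries served to sort genes by their maternal RNA. Each library was made from the total RNA of whole embryos, and the labels do not say whether replicates came from separate clutches, so p-values measure the spread between these libraries, which may be technical. In RNA of whole embryos, fewer cells of a type and less RNA per cell cannot be told apart.

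Oligomycin binds the membrane part of the mitochondrial ATP synthase and stops its rotation, so that ATP can no longer be made by respiration. The early zebrafish embryo runs on RNA and proteins that the mother laid down in the egg. Its own genome becomes active in the blastula, when transcription starts broadly and many maternal transcripts are cleared, some by maternal factors alone and others with the help of zygotic products such as the microRNA miR-430. The comparison asks which zygotic transcripts appear, and which maternal ones persist, when mitochondrial ATP synthesis is blocked during that time. The libraries count reads next to poly(A) tails, so a longer tail and more RNA cannot be told apart in maternal transcripts.

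The 8 libraries held between 1707133 and 3418462 counts. The mean total was 2630000 ± 670700 in oligomycin and 2524000 ± 583800 in untreated embryos (SD, n = 4 each), a difference within the spread (2-sided exact permutation test, p = 0.829; the smallest p this design allows is 0.0286). The first principal component of log2 CPM, the counts scaled per 1000000 after TMM scaling, over these 8 libraries held 51.4% of the variance and separated the groups. Oligomycin replicate 4 lay at -7.73 on it, nearest to the untreated libraries, while the other oligomycin libraries lay between -55.1 and -28.7 and the untreated ones between 14.8 and 55.0. Title numbers fall into 2 series, each with 2 libraries of either group, and what they mark is not stated. The numbers also form sets that each hold a library of every group, which the fit used throughout did not block. Replicates 1 and 2 belong to series 1, and replicates 3 and 4 to series 2.

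With edgeR's quasi-likelihood F-test and p-values adjusted by Benjamini-Hochberg, 1383 of 11238 genes tested (12.3%) were higher in oligomycin than in untreated embryos and 1017 (9.05%) were lower, at an adjusted p under 0.05. The log2 fold change was at least 1 in size for 458 of the higher and 367 of the lower genes. Scaled by total counts, 1703 genes were higher and 638 lower, so that 72.7% of calls were higher, against 57.6% with the scaling used throughout, which trims genes of extreme ratio (TMM). The number lower was 452 without untreated replicate 1, 497 without untreated replicate 2 and 593 without oligomycin replicate 1. The number of all calls was 1537 without untreated replicate 1 and 1598 without oligomycin replicate 1, against 2400 with all libraries. The median log2 fold change of all genes was -0.04.

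Shares of genes called differed with the maternal history of the RNA, although many calls fell in classes that moved both ways. Genes were sorted in the actinomycin D libraries, none of which is in either group compared. There, 743 genes with at least 10 CPM were lower at 4 than at 3 hpf, which makes them maternal RNAs that decay without transcription. Of these decaying maternal RNAs, 589 (79.3%) were higher in oligomycin than in untreated embryos and 3 were lower, against 12.3% and 9.05% over all genes. Their median log2 fold change was 0.79, being 1.02 in series 1 and 0.58 in series 2. Maternal RNAs that were kept in actinomycin D, 6842 genes, had 614 higher and 546 lower members and a median of -0.07. Maternal RNAs that rose in actinomycin D from 3 to 4 hpf numbered 353. Of these, 145 (41.1%) were lower in oligomycin and 1 was higher, against 9.05% and 12.3% over all genes, with a median of -0.30. Their lower count ran from 41 to 166 without any 1 library and was 60 with scaling by total counts. Genes without maternal RNA, with 3 counts or fewer in each actinomycin D library, numbered 170, of which 98 were lower and 4 higher. They passed the filter on low counts through the groups in which they are high, so their count is a description. It was 59 without untreated replicate 1 and 64 without oligomycin replicate 1. A gene with more than 3 counts in any 1 actinomycin D library is left out, so 170 is not a count of all zygotic genes. At 4 hpf, mesendoderm factors took 0.0433% of counts in actinomycin D replicate 4, against 0.0241%, 0.0230% and 0.0181% in replicates 1, 2 and 3. The remaining 3130 genes, between these classes, had 175 higher and 225 lower members and a median of 0.01.

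**Figure D1:**
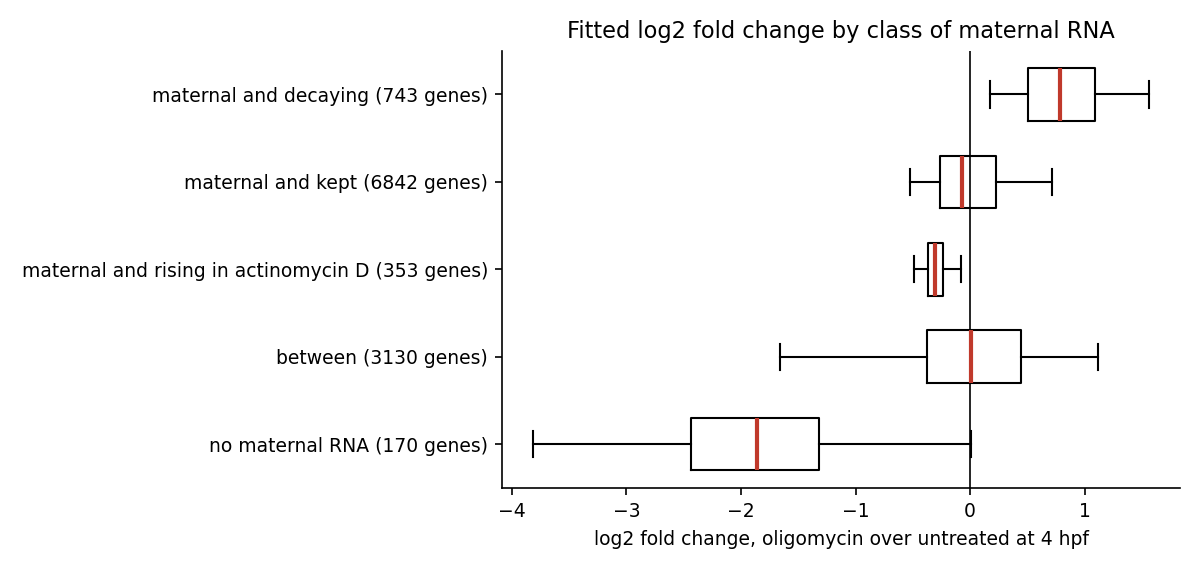
Fitted log2 fold change of oligomycin over untreated embryos at 4 hpf (horizontal axis) for 5 classes of genes set in the actinomycin D libraries; boxes span the 25th to the 75th percentile with the median in red, and whiskers reach the 5th and the 95th percentile. The box of decaying maternal RNAs lies above 0, with a median of 0.79, and the box of genes without maternal RNA lies below 0, with a median of -1.86.

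The decaying maternal RNAs took 12.8%, 10.8%, 11.4% and 9.53% of all counts in the 4 oligomycin libraries, against 5.61%, 5.20%, 6.87% and 6.65% in the untreated ones. No oligomycin library overlapped the untreated range. Actinomycin D embryos of the same age held 6.50% ± 0.94 (SD, n = 4), a low share that follows from how the class was chosen. Oligomycin embryos at 4 hpf, with a mean of 11.1% ± 1.35, thus lay near the levels of 3 hpf, which were 12.6% ± 0.97 in oligomycin, 11.6% ± 1.43 in actinomycin D and 10.9% ± 1.43 in untreated embryos (SD, n = 4 each). Genes without maternal RNA took 0.0384%, 0.0995%, 0.0751% and 0.162% of counts in oligomycin libraries, against 0.369%, 0.378%, 0.228% and 0.206% in untreated ones. Oligomycin replicate 4 was the highest of its group in the second class and the lowest in the first. The stage that the embryos had reached is not given in the sources used here, and its part in these differences was not tested.

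**Figure D2:**
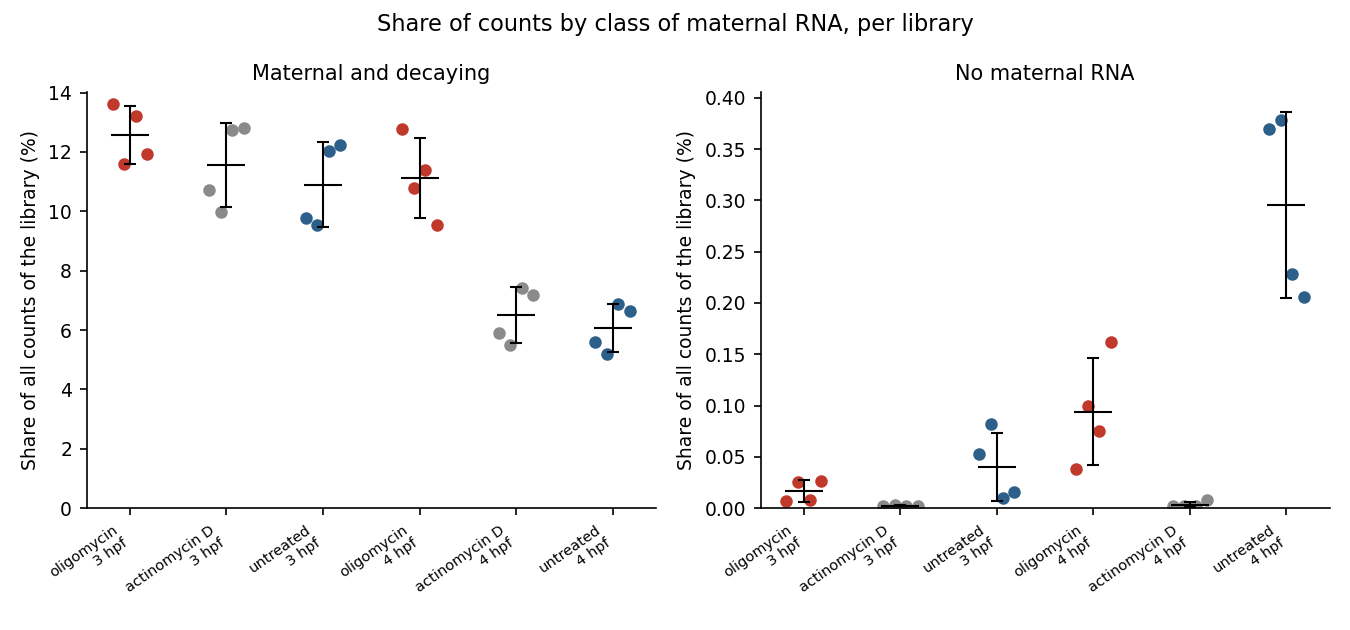
Share of all counts (percent, vertical axes) taken by decaying maternal RNAs (left) and by genes without maternal RNA (right) in each of the 24 libraries; each dot is a library, and lines mark the mean ± SD (n = 4). At 4 hpf the oligomycin libraries lie between 9.53% and 12.8% on the left, above all untreated and actinomycin D libraries, and between 0.0384% and 0.162% on the right, below the untreated ones. Both classes were chosen in the actinomycin D libraries, so the low shares of these at 4 hpf follow from that choice.

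Maternal RNAs of the oocyte were the first group by role. The shares of all genes called, 12.3% higher and 9.05% lower, and their median log2 fold change of -0.04 are the background for the counts and medians of this and each list that follows; no difference between a list and that background was tested. Of 43 tested, 16 (37.2%) were higher in oligomycin embryos and 4 were lower, with a median log2 fold change of 0.26. Of the 13 that decay in actinomycin D, 11 were higher. BTG4, the oocyte adaptor that brings the CCR4-NOT deadenylase to maternal mRNAs, had 756, 500, 744 and 650 CPM in oligomycin libraries, against 140, 148, 306 and 299 CPM in untreated ones. The groups did not overlap, and the log2 fold change was 1.56 (SE 0.28, edgeR adjusted p 0.000478). ZAR1L, a translational regulator related to zygote arrest 1, had 674, 511, 550 and 432 CPM in oligomycin libraries, against 180, 162, 290 and 231 CPM in untreated ones. It was higher by 1.32 (log2 fold change, SE 0.21, edgeR adjusted p 0.000123), again without overlap. MOS, the kinase that holds vertebrate eggs in meiosis, averaged 106 CPM in oligomycin and 45.3 CPM in untreated embryos, and the ligand gene bmp15 257 and 137 CPM in the same order of groups. All 4 were called higher in each fit that left out 1 of the 8 libraries. The 4 lower members were WEE1, YBX1, npm3 and khdrbs1a, at 106, 184, 62.9 and 1565 CPM in oligomycin embryos, against 225, 272, 82.6 and 2645 CPM in untreated ones. The call of npm3 was lost without untreated replicates 1 or 2 and without oligomycin replicates 1 or 2.

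Germ plasm RNAs, which the mother deposits for the future germ cells, were higher in 10 of 20 tested members (50%) and lower in none, against 12.3% and 9.05% of all genes. Their median log2 fold change was 0.49, being 0.72 in series 1 and 0.24 in series 2. The count ran from 7 to 12 as single libraries were left out. Of the 8 members that decay in actinomycin D 7 were higher, and of the other 12 members 3. Over all genes, 79.3% of decaying RNAs and 7.57% of the others were higher. buc, which organizes the germ plasm, had 1931, 2077, 1717 and 1373 CPM in oligomycin libraries, against 664, 898, 1004 and 1089 CPM in untreated ones. All oligomycin libraries were above all untreated ones, and buc was higher by 0.96 (SE 0.13, edgeR adjusted p 2.69e-05). In actinomycin D at 4 hpf buc averaged 1947 CPM, so the level in oligomycin embryos was nearer to that of embryos without transcription. TDRD6, a tudor protein of the germ plasm that binds Bucky ball, averaged 136 CPM in oligomycin and 165 CPM in actinomycin D embryos at 4 hpf, against 75.1 CPM in untreated ones. These 2 genes do not stand for the list. Summed over it, actinomycin D embryos at 4 hpf held 0.604% ± 0.033 of counts (SD, n = 4). That lay between 0.797% ± 0.108 in oligomycin and 0.425% ± 0.077 in untreated embryos (SD, n = 4 each). The piRNA pathway gene tdrkh was higher by 0.96 (edgeR adjusted p 2.63e-05), and ca15b, a germ plasm RNA, by 1.13 (edgeR adjusted p 0.00457). NANOS3, the repressor of maternal mRNA in primordial germ cells, differed less, with 183, 156, 174 and 165 CPM in oligomycin libraries, against 110, 93.4, 146 and 136 CPM in untreated ones. Its call (log2 fold change 0.47, edgeR adjusted p 0.0195) was lost without oligomycin replicate 1 or untreated replicate 2.

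Maternal claudins stood among the most abundant of these RNAs. Claudins are the sealing proteins of tight junctions, and both genes are among those of smallest p. cldng had 1747, 1855, 1520 and 1263 CPM in oligomycin libraries, against 515, 445, 658 and 598 CPM in untreated ones, and cldnd, also counted among the germ plasm and oocyte RNAs, averaged 2112 ± 373 CPM in oligomycin and 746 ± 172 CPM in untreated embryos (SD, n = 4 each). They were higher by 1.52 and 1.50 (edgeR adjusted p 9.63e-06 and 1.91e-05), in all 4 libraries without overlap. Other leading genes were TRMT12, a tRNA-modifying enzyme, at 37.2 CPM in oligomycin and 11.3 CPM in untreated embryos (log2 fold change 1.71), and pet100, an assembly factor of cytochrome c oxidase, at 51.1 and 12.5 CPM in the same order (log2 fold change 2.0). ppp1r14aa, an inhibitor of myosin phosphatase, was higher by 1.2 (edgeR adjusted p 1.91e-05). All of these decay in actinomycin D embryos.

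**Figure D3:**
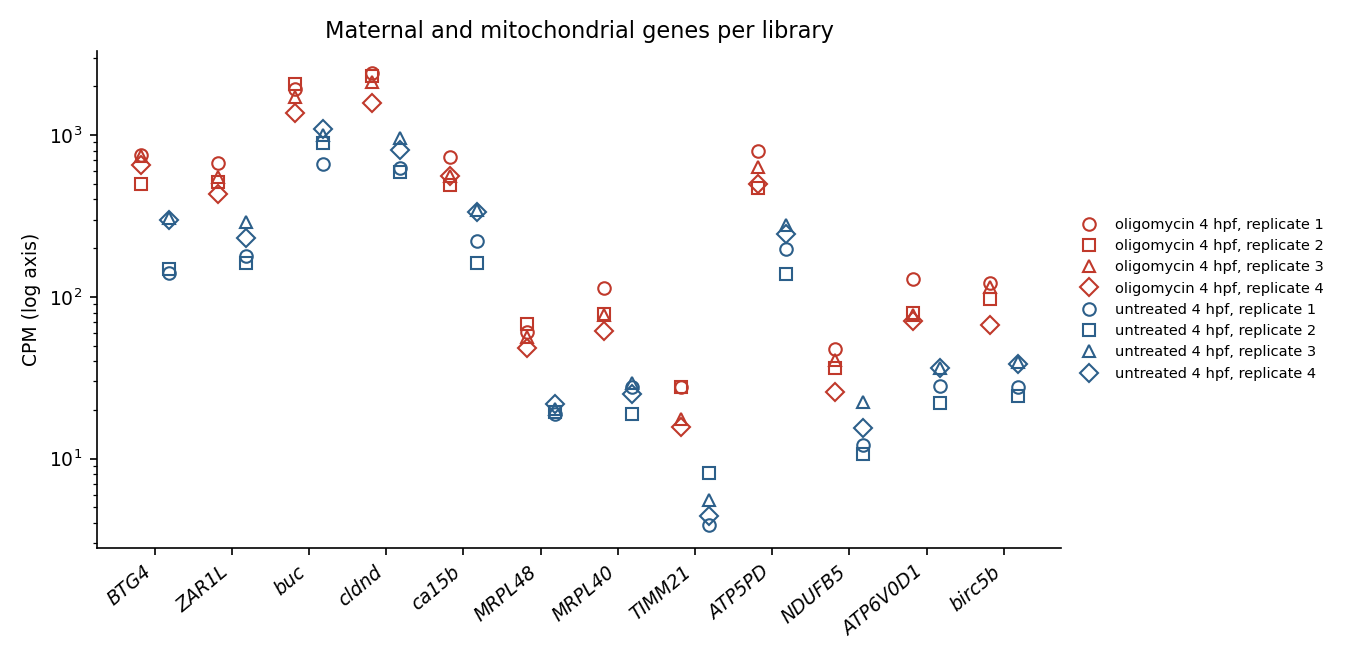
CPM per library (vertical axis, log scale) of 12 genes of maternal, germ plasm, mitochondrial and lysosomal lists, with oligomycin libraries in red left of untreated libraries in blue, and 1 symbol per replicate number. In these genes all 4 oligomycin libraries lie above all 4 untreated ones, as in BTG4, with 500 to 756 CPM in oligomycin and 140 to 306 CPM in untreated embryos.

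Genes of the enveloping layer were often lower. This outer epithelium is the first tissue to differentiate in the zebrafish and makes simple keratins under the control of Grainyhead and Klf factors. Of 17 tested genes of the layer and the epidermis, 9 (52.9%) were lower in oligomycin embryos and 1 was higher, against 9.05% and 12.3% of all genes. Of 27 matched identifiers 10 failed the filter on low counts, and members near 0 in the other groups, such as GRHL1 and krt4, passed it through the untreated embryos at 4 hpf. The share is therefore a description, and this holds for the lists of early developmental genes that follow as well. Such lists mix zygotic and maternal RNA. Here 2 of the 17 tested genes fell in the strict class without maternal RNA, which does not hold all zygotic genes, and 3 were decaying maternal RNAs. The median log2 fold change was -1.18, being -1.62 in series 1 and -0.77 in series 2. The count of lower members stayed between 8 and 10 as single libraries were left out. krt4 had 3.21, 2.68, 3.17 and 22.5 CPM in oligomycin libraries, against 192, 152, 53.7 and 81.2 CPM in untreated ones. No library overlapped, and the log2 fold change was -3.80 (SE 0.60, edgeR adjusted p 0.000181). krt8 had 19.3, 26.3, 26.1 and 98.2 CPM in oligomycin libraries, against 453, 459, 127 and 165 CPM in untreated ones (log2 fold change -2.79, edgeR adjusted p 0.000615). In both genes oligomycin replicate 4 stood well above the other 3 and came closest to the untreated libraries. krt92 was at 3 counts or fewer in every oligomycin library and was at least 16.6-fold lower, computed against that floor per library, with 19.8 CPM in untreated embryos.

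Regulators and junction genes of the same layer were lower as well. GRHL1, a Grainyhead factor of epithelia, averaged 0.76 CPM in oligomycin and 12.9 CPM in untreated embryos (log2 fold change -3.85, edgeR adjusted p 0.000854). The epithelial claudin cldne averaged 11.1 and 102 CPM in the same order (log2 fold change -3.13, edgeR adjusted p 0.00149). TFAP2C, an AP-2 factor of the non-neural ectoderm, averaged 7.59 ± 8.4 CPM in oligomycin and 47.2 ± 18.4 CPM in untreated embryos (SD, n = 4 each). ovol1a, a zinc finger factor of epidermal cells with maternal RNA, fell by 1.48 (edgeR adjusted p 9.15e-05). The 1 member called higher was KLF6, a Klf factor with maternal RNA, at 68.9 CPM in oligomycin and 40.8 CPM in untreated embryos. Near-identical gene copies, such as keratins and claudins in tandem, can share reads, so values of single copies are uncertain.

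Early ectodermal and neural factors were lower in 7 of 20 tested members (35%) and higher in 1, with a median of -1.1. SOX11 (ENSDARG00000077811), a SoxC factor of neural progenitors, had 28.9, 42.4, 40.2 and 134 CPM in oligomycin libraries, against 574, 595, 344 and 361 CPM in untreated ones. All untreated libraries were above all oligomycin ones, and it fell by 2.91 (SE 0.59, edgeR adjusted p 0.00186). The other SOX11 copy (ENSDARG00000095743), which has maternal RNA, fell by 0.65 (edgeR adjusted p 4.23e-05), with 635 ± 51.8 CPM in oligomycin and 999 ± 73 CPM in untreated embryos (SD, n = 4 each). Both ZIC2 copies, zinc finger factors of the neural plate and dorsal ectoderm, fell, by 2.81 (ENSDARG00000037178) and 1.97 (ENSDARG00000015554). vgll4l, a vestigial-like cofactor, averaged 21.9 CPM in oligomycin and 306 CPM in untreated embryos. SOX3 had 94.4 CPM in oligomycin and 290 CPM in untreated embryos with no overlap of libraries, but its log2 fold change of -1.61 was not called (edgeR adjusted p 0.112). OTX1, whose RNA here is maternal, was higher by 0.53 (edgeR adjusted p 0.00312).

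In the dorsoventral list of BMP ligands, receptors and antagonists, 8 of 18 tested members (44.4%) were lower and 1 was higher. The median was -1.19, being -2.02 in series 1 and -0.40 in series 2. BMP signals set ventral fates and are shaped by secreted antagonists and by receptors with feedback roles. Among ligands, bmp7a had 8.42, 14.5, 9.88 and 32.7 CPM in oligomycin libraries, against 89.8, 112, 42.7 and 60.3 CPM in untreated ones, without overlap (log2 fold change -2.18, SE 0.44, edgeR adjusted p 0.00161). BMP2 had 16.0 CPM in oligomycin and 51.6 CPM in untreated embryos, and its log2 fold change of -1.67 was not called (edgeR adjusted p 0.0766). Among feedback genes, szl, the sizzled inhibitor of Chordin cleavage, had 2.01, 1.61, 2.82 and 13.8 CPM in oligomycin libraries, against 67.4, 45.2, 26.9 and 33.2 CPM in untreated ones, and fell by 2.98 (edgeR adjusted p 0.000989). The pseudoreceptor BAMBI (ENSDARG00000055381) fell by 2.47 (edgeR adjusted p 0.000124), while its other copy (ENSDARG00000099677) was not called (log2 fold change 0.61). The ventral repressor ved fell by 1.89, a call that was lost without untreated replicates 1 or 2 and without oligomycin replicates 1 or 2. Of the transducers, SMAD5 fell by 0.50 (edgeR adjusted p 0.00173), while the receptor BMPR1A (ENSDARG00000019728) had 235 CPM in oligomycin and 224 CPM in untreated embryos and was not called. The 1 higher member was the other BMPR1A copy (ENSDARG00000105045), at 20.4 CPM in oligomycin and 12.3 CPM in untreated embryos with overlap (log2 fold change 0.72, edgeR adjusted p 0.0405). Its call was lost without replicates 1 or 3 of either group and without oligomycin replicate 2. The count of lower members was 5 without untreated replicate 1, without oligomycin replicate 1 or without oligomycin replicate 2.

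Mesendoderm and Nodal genes differed among themselves. Nodal ligands made at the margin and in the yolk syncytial layer switch on T-box, Mix and Gata factors in the cells that will form mesoderm and endoderm. The ligands were not called: ndr1 had 14, 20.9, 17.6 and 26.1 CPM in oligomycin libraries, against 17.3, 13.8, 17.3 and 18.2 CPM in untreated ones, and ndr2 had 10.0, 20.4, 21.9 and 31.2 CPM, against 38.0, 32.0, 15.1 and 19.5 CPM. Their log2 fold changes were 0.24 (SE 0.28, edgeR adjusted p 0.596) and -0.30 (SE 0.45, edgeR adjusted p 0.681). The yolk layer homeobox gene mxtx2 overlapped too, with 160 ± 47.6 CPM in oligomycin and 185 ± 27.3 CPM in untreated embryos (SD, n = 4 each; log2 fold change -0.21, edgeR adjusted p 0.787). A missed call does not show equal levels. The co-receptor tdgf1 and the transducer foxh1, both with maternal RNA, fell by 0.81 and 0.66 (edgeR adjusted p 0.00122 and 0.00236). Over the whole Nodal list 3 of 14 were lower and 0 higher.

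Of 11 tested mesendoderm transcription factors, 6 (54.5%) were lower and 0 higher. The median log2 fold change was -1.52, with -2.86 in series 1 and -0.21 in series 2. tbxta, the Brachyury factor of the margin and notochord, had 7.22, 16.1, 14.1 and 33.0 CPM in oligomycin libraries, against 90.7, 75.3, 21.3 and 20.2 CPM in untreated ones. Both groups overlapped, because oligomycin replicate 4 was above untreated replicates 3 and 4. mixl1, tbxta, GATA5 and foxa3 were called at adjusted p values of 0.0184 to 0.0330 (edgeR) and each lost the call without untreated replicates 1 or 2 and without oligomycin replicates 1, 2 or 3; the count of lower factors was then 2 each time. With the series as a covariate 3 factors were lower, and 2 in a fit of the 8 libraries only; mixl1, tbxta and GATA5 lost the call in both of these fits. sebox kept its call in all these fits, with 1.95 CPM in oligomycin and 13.0 CPM in untreated embryos. GATA6, at 4.89 and 24.9 CPM in the same order, kept its call in all of them but the fit of the 8 libraries only. In that fit foxa3 kept its call. tbx16 had 44.5, 96.1, 89.2 and 403 CPM in oligomycin libraries, against 1197, 1108, 479 and 517 CPM in untreated ones, without overlap, and was not called (log2 fold change -2.37, edgeR adjusted p 0.0567). In series 2 alone tbxta and GATA5 had log2 fold changes of 0.23 and 0.05.

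Among FGF signals few members were lower, and among Wnt signals more. In the FGF list 2 of 14 tested members (14.3%) were lower, against 9.05% of all genes. They were SPRY4, which fell by 2.08, and FGF8 (ENSDARG00000003399), by 1.63 (edgeR adjusted p 0.00445 and 0.00524). FGF8 overlapped between the groups and lost its call without untreated replicate 1; the list had 1 lower member in that fit, 4 without untreated replicate 3 and 6 without oligomycin replicate 4. In the Wnt and dorsal organizer list 5 of 13 (38.5%) were lower and 1 higher, and 3 were lower without any 1 of replicates 1 and 2 of either group. The higher member was AXIN2, a feedback inhibitor of the pathway (log2 fold change 0.38, edgeR adjusted p 0.0459), whose call was lost without replicates 1 or 3 of either group, without oligomycin replicate 2, with DESeq2 size factors and in a fit of the 8 libraries only. Both FZD7 receptor copies fell, by 1.52 (ENSDARG00000060004) and 0.64 (ENSDARG00000027589), and CTNNB1, the β-catenin gene, by 0.52 (edgeR adjusted p 0.00543). SFRP1, a secreted Wnt antagonist, had 6.82, 12.9, 10.2 and 13.5 CPM in oligomycin libraries, against 33.3, 40.8, 32.0 and 32.2 CPM in untreated ones, and fell by 1.66 (SE 0.23, edgeR adjusted p 3.42e-05).

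**Figure D4:**
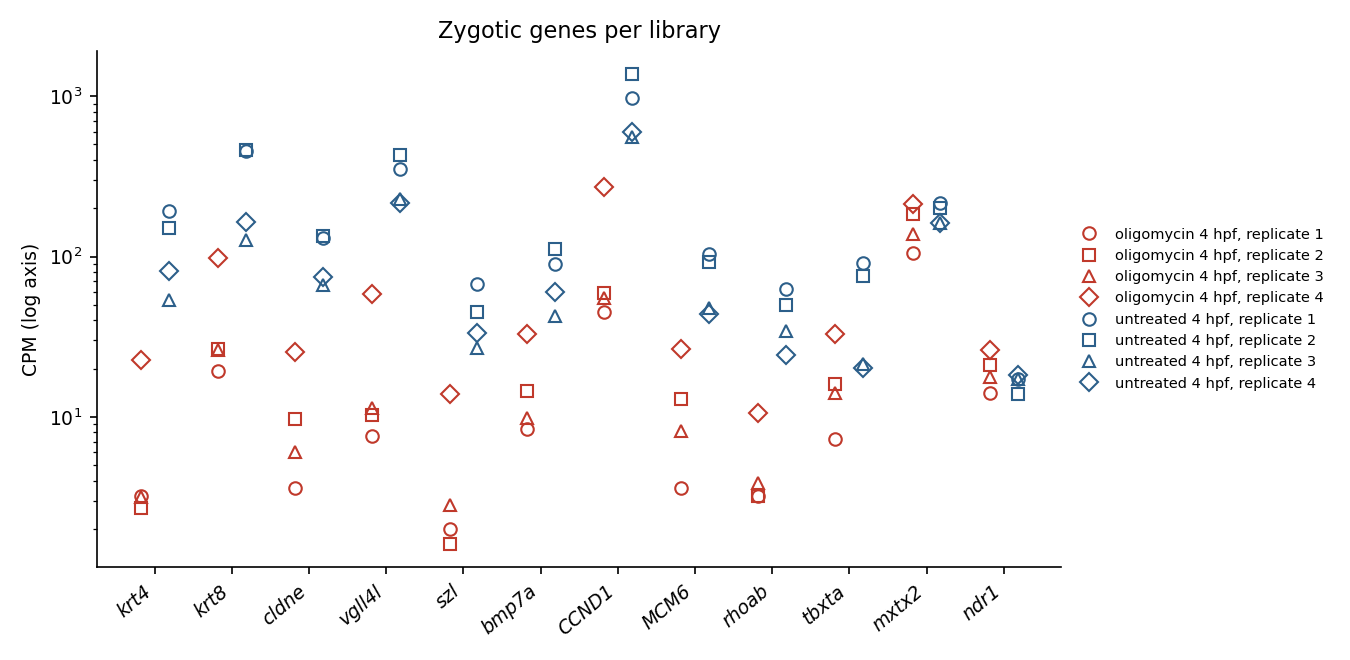
CPM per library (vertical axis, log scale) of 12 zygotic genes at 4 hpf, with oligomycin libraries in red left of untreated libraries in blue, and 1 symbol per replicate number; MCM6 is the copy ENSDARG00000057683. Oligomycin replicate 4 is the highest of its group in each, as in CCND1 at 272 CPM, and tbxta, mxtx2 and ndr1 overlap between the groups.

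The factors that open the zygotic genome were lower only in part. nanog, pou5f3 and sox19b are translated from maternal RNA and bind first at zygotic enhancers. nanog had 796, 916, 982 and 1356 CPM in oligomycin libraries, against 1780, 1639, 1540 and 1638 CPM in untreated ones, without overlap, and fell by 0.70 (SE 0.13, edgeR adjusted p 0.000385). pou5f3 fell by 0.56 (edgeR adjusted p 0.000755), with 460 CPM in oligomycin and 678 CPM in untreated embryos. sox19b had 779, 826, 876 and 937 CPM in oligomycin libraries, against 861, 820, 1190 and 1005 CPM in untreated ones, and was not called. In all, 4 of 15 tested activators were lower, and 8 without oligomycin replicate 4.

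Immediate zygotic response genes were lower in 8 of 28 tested members (28.6%) and higher in 3, and 13 were lower without oligomycin replicate 4. The lower ones include BTG1, linked to deadenylation, which had 91.8, 96.6, 97.0 and 171 CPM in oligomycin libraries, against 411, 407, 275 and 270 CPM in untreated ones (log2 fold change -1.57, edgeR adjusted p 9.63e-06). PRKCD (ENSDARG00000070651), a protein kinase C of the delta type, had 14, 21.5, 31.7 and 52.5 CPM in oligomycin libraries, against 188, 153, 117 and 115 CPM in untreated ones, and fell by 2.23 (edgeR adjusted p 1.91e-05). Its second copy (ENSDARG00000009208), which has maternal RNA, was not called, at 279 CPM in oligomycin and 240 CPM in untreated embryos. aplnra, a receptor for the Toddler peptide, fell by 2.45 (edgeR adjusted p 0.00138) and the chemokine CXCL12 (ENSDARG00000037116) by 2.33 (edgeR adjusted p 0.00355). The 3 higher genes were MYC (ENSDARG00000007241), ID2 and ID3, all with maternal RNA, at 67.0, 265 and 302 CPM in oligomycin and 34.0, 132 and 172 CPM in untreated embryos. The other MYC copy (ENSDARG00000045695) was not called (log2 fold change 0.45). The call of ID3 was lost without oligomycin replicates 1 or 2 or untreated replicate 4.

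Some zygotic transcripts went the other way. The microRNA miR-430 drives clearance of maternal mRNAs in zebrafish and comes from a large cluster of near-identical precursor genes, among which reads cannot be assigned with certainty. Of 55 precursor identifiers, 50 failed the filter, with 41 at 0 in all 8 libraries. Of the 5 tested, 3 were higher in oligomycin embryos and none lower; such genes can pass the filter through the groups in which they are high alone, so the count is a description. dre-mir-430b-6 had 29.7, 52.1, 34.2 and 17.4 CPM in oligomycin libraries, against 3.89, 4.39, 9.20 and 5.82 CPM in untreated ones. No library overlapped, and the log2 fold change was 2.46 (SE 0.45, edgeR adjusted p 0.000921). dre-mir-430b-16 was at 3 counts or fewer in all untreated libraries and at least 5.07-fold higher in oligomycin embryos, at 6.73 CPM. dre-mir-430b-17 was higher by 1.44, a call that was lost in 5 of 8 fits without 1 library, namely untreated replicates 1, 2 or 4 and oligomycin replicates 2 or 3. These counts come from reads of polyadenylated RNA, not from the mature microRNA. The 2 small nucleolar RNA genes that were higher, among 13 tested, are both copies of SNORD14. Of 657 identifiers of small nuclear and nucleolar RNAs 644 failed the filter, with 393 at 0 in all 8 libraries. The same limit as for the precursors holds, so this count is a description too. The copy ENSDARG00000082008 had 22.1, 36.0, 28.9 and 21.0 CPM in oligomycin libraries, against 3.89, 2.51, 5.52 and 6.51 CPM in untreated ones (log2 fold change 2.48, edgeR adjusted p 0.00458). The other copy (ENSDARG00000113056) was at 7.56 CPM in oligomycin and 2.41 CPM in untreated embryos (log2 fold change 1.58, edgeR adjusted p 0.0406), and its call was lost without untreated replicates 1, 2 or 4 or oligomycin replicates 2 or 3. Such RNAs lie within introns of host genes, and which transcript gave the reads was not tested.

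Nuclear genes of the mitochondrion were higher more often than lower. Over 14 lists of respiratory chain, ATP synthase, assembly, ribosome, import, carrier, metabolic, genome maintenance and membrane dynamics genes, 83 of 416 tested genes (20%) were higher and 5 were lower, against 12.3% and 9.05% of all genes. By class of maternal RNA, of the 51 that decay in actinomycin D 41 (80.4%) were higher, as for all decaying RNAs (79.3%), and of the other 365 genes 42 (11.5%) were higher, against 7.57% of all other genes. The 13 protein genes that the mitochondrial genome itself encodes had no higher member and 1 lower, MT-ND1, with a median of -0.35. MT-ND1 overlapped, with 67.0 CPM in oligomycin and 99.2 CPM in untreated embryos. Its call was lost in 6 of 8 fits without 1 library, those without replicates 1, 2 or 3 of either group.

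The target of oligomycin is the ATP synthase, which is built from nuclear subunits and from 2 made inside the mitochondrion. Of 16 tested nuclear subunit genes 5 (31.2%) were higher and 0 lower, with a median log2 fold change of 0.37, being 0.51 in series 1 and 0.26 in series 2. By class, 4 of the 4 subunits that decay in actinomycin D were higher and 1 of the other 12 (8.33%), against 79.3% of all decaying RNAs and 7.57% of all other genes. ATP5F1A and ATP5F1B, whose products form the catalytic part, were not called. ATP5F1A had 359, 432, 341 and 348 CPM in oligomycin libraries, against 418, 478, 393 and 387 CPM in untreated ones (log2 fold change -0.18, SE 0.12, edgeR adjusted p 0.306). ATP5F1B had 713, 690, 690 and 679 CPM, against 732, 640, 748 and 622 CPM (log2 fold change 0.02, SE 0.12, edgeR adjusted p 0.946). Of all 16 subunit genes 11 were not called. The higher ones named here are of the stalks and the membrane part, and a difference between parts of the enzyme was not tested. ATP5PD, of the peripheral stalk, had 797, 471, 633 and 496 CPM in oligomycin libraries, against 197, 138, 279 and 245 CPM in untreated ones, without overlap (log2 fold change 1.47, SE 0.31, edgeR adjusted p 0.00199). ATP5MG, a membrane subunit, was higher by 1.01, a call lost without oligomycin replicate 1, and atp5f1e, of the central stalk, by 0.71 (edgeR adjusted p 0.00366). TMEM70, an assembly factor of the enzyme, averaged 348 CPM in oligomycin and 175 CPM in untreated embryos. The count of higher subunits was 3 without oligomycin replicate 1 and 8 with scaling by total counts.

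In the respiratory chain, 9 of 36 complex I subunits (25%), 1 of 4 of complex II, 1 of 11 of complex III and 5 of 14 of complex IV were higher, and 1 of complex IV, COX7C, was lower. NDUFB5, of the membrane arm of complex I, had 47.3, 36.5, 40.9 and 25.8 CPM in oligomycin libraries, against 12, 10.7, 22.4 and 15.4 CPM in untreated ones, without overlap (log2 fold change 1.28, edgeR adjusted p 0.000385). ndufc1 was higher by 1.05 and NDUFS3, of the arm that binds NADH, by 0.80 (edgeR adjusted p 0.00232 and 0.00204). SDHC, a membrane anchor of complex II, was higher by 1.01 (edgeR adjusted p 0.00203). The complex IV count was 3 without oligomycin replicates 1, 2 or 3 or untreated replicates 3 or 4, and COX7C lost its call in 5 of 8 such fits, those without untreated replicates 1 or 2 or oligomycin replicates 1, 3 or 4. Among assembly factors 11 of 44 (25%) were higher and 0 lower, and 7 were higher without oligomycin replicate 1. LYRM9 averaged 37.6 CPM in oligomycin and 10.1 CPM in untreated embryos (log2 fold change 1.89, edgeR adjusted p 2.14e-05), and the copper chaperone cox17 270 and 149 CPM in the same order (log2 fold change 0.85, edgeR adjusted p 0.000327).

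Mitochondrial ribosomal protein genes, whose products translate the RNAs of the mitochondrial genome, were higher in 21 of 76 tested members (27.6%) and lower in none. The median was 0.35, being 0.40 in series 1 and 0.29 in series 2, and the count stayed between 14 and 23 without any 1 library. MRPL48 had 61.0, 68.2, 56.8 and 48.0 CPM in oligomycin libraries, against 19.0, 19.4, 20.2 and 21.9 CPM in untreated ones. The groups lay more than their own ranges apart, and the log2 fold change was 1.52 (SE 0.17, edgeR adjusted p 9.63e-06). MRPL40 was higher by 1.69 and MRPL12 by 1.08 (edgeR adjusted p 2.63e-05 and 0.000162). Of the 17 members that decay in actinomycin D 13 were higher, and of the other 59 members 8. Of the cytosolic ribosomal protein genes 0 of 82 were higher and 2 lower, with a median of -0.31. The log2 fold change was below 0 in 80 of these 82, against 5954 of all 11238 genes. The number lower was 0 without replicate 1 or replicate 3 of oligomycin or replicates 1 or 2 of untreated embryos, 1 without oligomycin replicate 4, 5 and 7 without untreated replicates 3 and 4, and 10 without oligomycin replicate 2. It was 14 with the series as a covariate, and 0 with scaling by total counts or in a fit of the 8 libraries only. With sets of title numbers as a block it was larger still, as given below.

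Of the protein import genes 8 of 43 were higher and 1 lower, and of the carriers 9 of 37 were higher and 0 lower. TIMM21, of the inner membrane translocase, averaged 22.2 CPM in oligomycin and 5.50 CPM in untreated embryos (log2 fold change 2.03, edgeR adjusted p 6.34e-05). IMMP1L, an inner membrane peptidase, was higher by 2.34 (edgeR adjusted p 0.000302). slc25a39, a carrier of glutathione in mammals, was higher by 1.34 (edgeR adjusted p 7.11e-05), and SLC25A25, an ATP-magnesium carrier, by 0.61 (edgeR adjusted p 0.00102). There were 5 higher import genes without oligomycin replicate 1 and 5 higher carriers without oligomycin replicate 3. In the list of fission, fusion and contact genes, 1 of 43 was higher and 1 lower, with a median of -0.04. The fission adaptor FIS1 was higher by 0.42 and mief2 fell by 0.35 (edgeR adjusted p 0.0256 and 0.0459). mief2 lost its call in every fit without 1 library, and FIS1 in those without oligomycin replicates 1 or 3 or untreated replicate 4. The fusion genes MFN2 and OPA1 were not called.

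**Figure D5:**
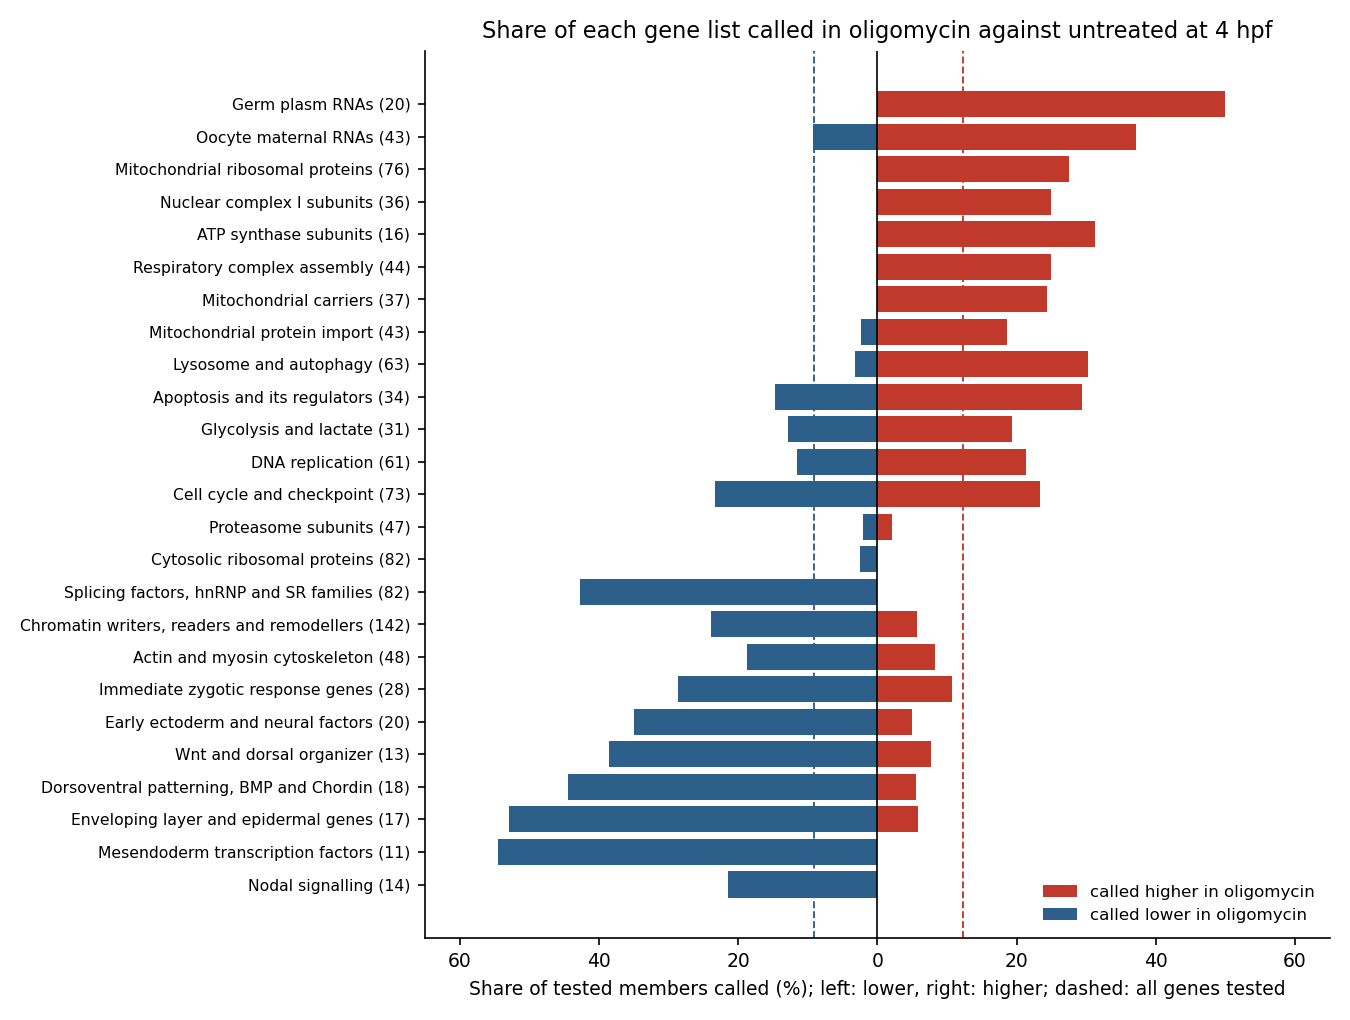
Share of tested members (percent, horizontal axis) called higher (right, red) and lower (left, blue) in oligomycin against untreated embryos for 25 gene lists, with the number of tested members after each name; dashed lines mark the shares of all 11238 genes, 12.3% higher and 9.05% lower. Germ plasm RNAs reach 50% higher, and enveloping layer and mesendoderm lists 52.9% and 54.5% lower.

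Glycolysis can make ATP without the mitochondrion, and its list moved both ways, with 6 of 31 tested members higher and 4 lower, and a median of 0.20. The first enzyme, HK2, was higher by 0.61 (edgeR adjusted p 0.00383), with 200, 168, 172 and 166 CPM in oligomycin libraries, against 111, 85.3, 134 and 128 CPM in untreated ones. pfkfb2a, which makes the activator of phosphofructokinase, averaged 15.8 CPM in oligomycin and 5.47 CPM in untreated embryos (log2 fold change 1.52, edgeR adjusted p 0.000723). The lactate transporter SLC16A3 fell by 0.37 (edgeR adjusted p 0.00808). The count of lower members was 1 without untreated replicates 1 or 2 and 2 without oligomycin replicate 1.

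AMP-activated kinase senses a low energy charge, and 4 of 26 tested genes of its list were higher and 4 lower. STK11, the kinase that activates it, was higher by 0.59 (edgeR adjusted p 0.000376), and the subunit genes PRKAG2 and PRKAB1 (ENSDARG00000046143) by 0.76 and 0.83 (edgeR adjusted p 0.00292 and 0.00124). sesn2, a sestrin upstream of it, averaged 43.4 CPM in oligomycin and 19.9 CPM in untreated embryos (log2 fold change 1.09, edgeR adjusted p 0.00788), and sesn3 5.39 and 30.0 CPM in the same order. sesn3 lost its call without untreated replicate 1. The lower count in this list was 0 without untreated replicate 1, 1 without oligomycin replicates 1 or 3 or untreated replicate 2, and 2 without oligomycin replicate 2.

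The integrated stress response, which raises ATF4 when mitochondria or the endoplasmic reticulum fail, had 6 of 31 tested members higher and 6 lower. Its own transcription factors were not higher: atf4a and atf4b fell by 0.87 and 2.01 (edgeR adjusted p 0.0329 and 0.00757), and CEBPB by 2.29 (edgeR adjusted p 0.00072). Higher were EIF2AK3, the kinase of the endoplasmic reticulum, by 0.92 (edgeR adjusted p 0.00241), dele1, which in human cells carries the mitochondrial stress signal to the cytosol, by 0.77, and nupr1a, a small stress protein, by 1.40 (edgeR adjusted p 0.000354). CHAC1, an ATF4 target that degrades glutathione, was higher by 0.73 (edgeR adjusted p 0.0157), with 422 ± 34.5 CPM in oligomycin and 255 ± 53.7 CPM in untreated embryos (SD, n = 4 each). In this list 5 of the 6 higher genes decay in actinomycin D. The call of dele1 was lost without oligomycin replicate 1, that of atf4a without replicates 1 or 2 of either group or oligomycin replicate 3, and the lower count was 3 without replicate 1 of either group.

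Among heat shock and chaperone genes 4 of 34 were higher and 5 lower, with at most 3 lower in any fit without 1 library and 0 without untreated replicate 1. With the series as a covariate 8 were higher, and with scaling by total counts 1 was lower. PDIA4, a folding enzyme of the endoplasmic reticulum, was higher by 1.09 (edgeR adjusted p 2.51e-05). In the list of apoptosis and its regulators 10 of 34 (29.4%) were higher and 5 lower. Of the 6 members that decay in actinomycin D 5 were higher, and of the other 28 members 5. Leading among the higher ones were the survivin genes birc5b and BIRC5, at 100 and 114 CPM in oligomycin and 32.5 and 45.6 CPM in untreated embryos. The lower count of that list was 1 without untreated replicate 1, 2 without oligomycin replicate 1 or untreated replicate 2, and 3 without oligomycin replicate 3.

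Cell cycle genes moved in both directions, with 17 of 73 tested members (23.3%) higher and 17 lower. By class of maternal RNA, 12 of 14 members that decay in actinomycin D were higher and none lower, and of the other 59 members 5 were higher and 17 lower. plk1, a mitotic kinase, was higher by 0.50 (edgeR adjusted p 0.00223), with 1334, 1265, 1315 and 1240 CPM in oligomycin libraries, against 828, 796, 1052 and 960 CPM in untreated ones. AURKB, of the chromosomal passenger complex together with survivin, was higher by 0.71, a call lost without oligomycin replicate 1 or untreated replicate 4. Among the lower members were genes of entry into the cycle. CCND1, a D-type cyclin, had 44.9, 59.1, 55.4 and 272 CPM in oligomycin libraries, against 981, 1372, 561 and 602 CPM in untreated ones, and fell by 3.00 (SE 0.70, edgeR adjusted p 0.00471). CCNE2, an E-type cyclin, fell by 2.78 (edgeR adjusted p 0.00023), cdkn1ca, an inhibitor of cyclin-dependent kinases, by 1.91 (edgeR adjusted p 0.00671) and WEE1, which restrains entry into mitosis, by 1.07 (edgeR adjusted p 0.00152). The higher count was 11 without oligomycin replicate 1, and the lower count was 10 without untreated replicate 1 and 11 without replicate 2 of either group.

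DNA replication genes were higher in 13 of 61 tested members and lower in 7. Of the 11 members that decay in actinomycin D 8 were higher, and of the other 50 members 5. CDC45, of the replicative helicase, had 530, 203, 333 and 230 CPM in oligomycin libraries, against 80.3, 60.2, 158 and 94.9 CPM in untreated ones, and was higher by 1.71 (edgeR adjusted p 0.00993). DNMT1, the maintenance DNA methyltransferase, averaged 814 CPM in oligomycin and 428 CPM in untreated embryos (log2 fold change 0.93, edgeR adjusted p 2.14e-05). The MCM6 copy without much maternal RNA (ENSDARG00000057683) had 3.61, 12.9, 8.11 and 26.4 CPM in oligomycin libraries, against 104, 92.2, 47.5 and 43.5 CPM in untreated ones, and fell by 2.45 (edgeR adjusted p 0.00375). The maternal MCM6 copy (ENSDARG00000033231) was not called, at 226 CPM in oligomycin and 252 CPM in untreated embryos. MCM3 fell by 2.79 (edgeR adjusted p 0.00578). The higher count was 8 without untreated replicate 1, and the lower count was 3 without that library and 4 without untreated replicate 2 or oligomycin replicates 1, 3 or 4.

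Splicing factors had many lower members. Of 82 tested hnRNP, SR and core splicing genes 35 (42.7%) were lower in oligomycin and 0 higher, against 9.05% and 12.3% of all genes. The median was -0.35, being -0.51 in series 1 and -0.21 in series 2. hnrnpa0a had 18.1, 25.8, 28.6 and 49.5 CPM in oligomycin libraries, against 136, 142, 84.6 and 96.6 CPM in untreated ones, and fell by 1.89 (SE 0.26, edgeR adjusted p 3.66e-05). srsf5a, an SR protein, averaged 171 CPM in oligomycin and 608 CPM in untreated embryos (log2 fold change -1.82, edgeR adjusted p 0.000353). SNRNP70, of the U1 particle, fell by 0.74, and HNRNPU (ENSDARG00000004735), a nuclear scaffold protein, by 0.60 (edgeR adjusted p 0.00046 and 0.000854). The count was 15 and 18 without untreated replicates 1 and 2, 21 without oligomycin replicate 1, and 24 with scaling by total counts.

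Chromatin genes were lower in 34 of 142 tested members (23.9%) and higher in 8. BRD2, a reader of acetylated histones, had 266, 382, 407 and 540 CPM in oligomycin libraries, against 1025, 1010, 894 and 675 CPM in untreated ones (log2 fold change -1.17, edgeR adjusted p 0.000239). CTCF, the insulator factor, fell by 0.81 and mbd3b, a subunit of a remodelling and deacetylase complex, by 1.68 (edgeR adjusted p 4.23e-05 and 4.01e-05). Higher were DNMT1 and PCGF1, of a Polycomb complex, the second by 1.18 (edgeR adjusted p 5.6e-05). The lower count was 12 and 13 without untreated replicates 2 and 1, 19 and 17 without oligomycin replicates 1 and 2, and 17 with scaling by total counts, with 14 then higher; 13 were higher without untreated replicate 4. Of the RNA polymerase II and general factors 12 of 61 were lower and 6 higher, with 5 lower without untreated replicates 1 or 2. All 6 higher ones were among the 7 members that decay in actinomycin D, and none of the other 54 was higher. TBPL2, the TATA-binding protein of the oocyte, averaged 48.4 CPM in oligomycin and 16.2 CPM in untreated embryos (log2 fold change 1.58, edgeR adjusted p 0.000109), and CDK7, the kinase of a general factor, 76.4 and 36.6 CPM in the same order. CDK9, which releases the paused polymerase, fell by 0.54 (edgeR adjusted p 0.00375).

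Histone genes comprised 5 lower and 3 higher of 25 tested. h2ax, the variant that marks DNA breaks, had 5.21, 5.91, 4.59 and 14.1 CPM in oligomycin libraries, against 45.8, 45.2, 69.9 and 34.9 CPM in untreated ones, without overlap, and fell by 2.67 (SE 0.37, edgeR adjusted p 3.55e-05). The maternal H2A variant h2af1al went the other way, with 962 CPM in oligomycin and 519 CPM in untreated embryos (log2 fold change 0.89, edgeR adjusted p 0.00113). The lower count was 2 without oligomycin replicate 1 and 3 without untreated replicate 2. Of the proteasome subunits 1 of 47 was higher and 1 lower. Higher were 2 without oligomycin replicate 2 or untreated replicate 4, and lower were 3 without oligomycin replicate 4, 2 without untreated replicate 4, and 0 without oligomycin replicate 1 or untreated replicate 2.

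Lysosome and autophagy genes were higher in 19 of 63 tested members (30.2%) and lower in 2, and the higher count stayed between 14 and 19 without any 1 library. ctss2.1, a cathepsin gene, had 1102, 1207, 998 and 844 CPM in oligomycin libraries, against 424, 457, 561 and 495 CPM in untreated ones, without overlap (log2 fold change 1.1, SE 0.13, edgeR adjusted p 9.63e-06). The proton pump subunits ATP6V1H and ATP6V0D1 were higher by 1.44 and 1.52 (edgeR adjusted p 1.43e-05 and 0.000157). map1lc3c, a protein of autophagosome membranes, averaged 2332 CPM in oligomycin and 1130 CPM in untreated embryos, and ATG3, which couples such proteins to lipid, 61.8 and 24.4 CPM in the same order. MAP1LC3B, of the same family as map1lc3c, fell by 1.19 (edgeR adjusted p 0.00513). The lower count was 1 without untreated replicate 2. Of the 14 members that decay in actinomycin D 11 were higher, and of the other 49 members 8.

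Actin and myosin genes were lower in 9 of 48 tested members and higher in 4, and 5 were lower without untreated replicates 1 or 2 or oligomycin replicate 3. tmsb1, a thymosin that binds actin monomers, had 0, 0.54, 0.71 and 3.90 CPM in oligomycin libraries, against 91.1, 85.9, 12.5 and 11.6 CPM in untreated ones, and fell by 5.05 (SE 0.86, edgeR adjusted p 0.000351). In series 1 it was at 0 and 0.54 CPM in oligomycin libraries, too low for a fold change there, and in series 2 its log2 fold change was -2.32. rhoaa and rhoab, GTPases of the contractile cortex, fell by 1.92 and 2.96 (edgeR adjusted p 6.34e-05 and 0.000716). hsd17b14, a steroid dehydrogenase gene outside the lists, averaged 1.33 CPM in oligomycin and 32.0 CPM in untreated embryos (log2 fold change -4.44, edgeR adjusted p 3.16e-05). At the other end, RNaseP_nuc, the RNA of nuclear ribonuclease P, had 60.2, 13.4, 44.1 and 9.31 CPM in oligomycin libraries, against 3.46, 4.39, 7.36 and 2.06 CPM in untreated ones (log2 fold change 2.87, edgeR adjusted p 0.00991).

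Zinc finger genes with zebrafish numbers, many of them in tandem arrays of similar copies, were lower in 9 of 44 tested members (20.5%) and higher in 1. Of 203 identifiers matched 159 failed the filter, and 11 of the tested genes were without maternal RNA. Such genes can pass the filter through the groups in which they are high alone, so the count is a description. znf1063 averaged 23.5 CPM in oligomycin and 142 CPM in untreated embryos (log2 fold change -2.57, edgeR adjusted p 0.00589), and znf1020 and znf1066 fell by 2.5 and 2.45. The count was 5 without untreated replicates 1 or 2 and 14 without oligomycin replicate 4. The label of the tissue was checked against other cell types. Of 35 markers of blood, muscle, neurons and other late tissues 33 failed the filter, 10 of them were at 0 in all 8 libraries, and none of the 2 tested was called.

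The difference was set side by side in the 2 series of title numbers, within 1 fit with a mean for each group and series. In series 1, 1413 genes were higher and 1085 lower in oligomycin, and in series 2, 123 and 17. The test of the difference between the series called 0 genes (edgeR, smallest adjusted p 0.194), with 957 at an unadjusted p under 0.05 and 53 called without oligomycin replicate 3. A size that differs between the series was thus not shown gene by gene with all libraries. Of 190 called genes named or followed, 188 had the same sign in fits of either series alone. They were picked by their call over both series together, which favours equal signs, so that count is a description. In series 1 alone 172 of them were called, and in series 2 alone 30. Decaying maternal RNAs kept a positive median in either, whereas mesendoderm factors, at -2.86 in series 1, were at -0.21 in series 2.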

How the data were processed

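Total RNA of whole embryos was turned into QuantSeq 3′ libraries, per the labels' protocols. Raw read counts, 1 value per Ensembl gene, are what the authors deposited, per the file headers and the whole-number values. The submitters' processing notes name Bowtie2 2.3.4.1, featureCounts, Subread 1.6.2 and the build GRCz11; annotation release, strand setting and molecular identifiers are not given in the sources used here. Symbols matched 29201 of 32520 identifiers and often use human spelling. Counts of overlapping genes and near-identical copies are uncertain.

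Counts were analysed with edgeR 4.0.16 in R 4.3.3: filterByExpr by group kept 11238 genes, TMM scaled the libraries, and the robust quasi-likelihood test used all 24 libraries, each group having its own mean, with Benjamini-Hochberg adjustment and calls at an adjusted p under 0.05. CPM are TMM-scaled. On simulated counts for this comparison with 11238 genes, 75% of genes changed by 1 on the log2 scale and 96% of those changed by 2 were recovered, and 4 unchanged genes were called. The simulation changed 100 genes by each size, leaving out those of lowest level in untreated embryos. It held no series, set or deviating library, so these figures may not hold for the real libraries. Folds against a group at the floor of 3 counts per library are lower bounds, which cover counting error only, as PCR copies are not independent molecules.

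Maternal classes were set in actinomycin D libraries: decaying, kept or rising at 4 against 3 hpf with at least 10 CPM at both times; no maternal RNA at 3 counts or fewer in all 8; the rest between. Replicates, numbered in accession order, differed by more than counting noise within groups, the lowest chi-square being 3.89 per gene. Members and gene lists were chosen with earlier results of these data known, so no list was tested; counts and medians are read against those of all genes. Genes were named as the leading called genes per direction and list, and the first tested names of lists; a few are not reported here. Alternatives changed the scaling, filter, libraries, tool (DESeq2 1.42.0), series or set terms.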

Additional observations from a re-analysis of the deposited data

Results flagged for a closer look

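For each of 215 genes, the 4 libraries of each group were compared by Dixon's test at the 95% level: a library was marked where its gap to the nearest other took up most of the group's range. This marked 35 of 430 gene and group combinations; chance marks about 1 in 20. Of these, 24 were marked for oligomycin replicate 4, which was the highest of its group 21 times and the lowest 3 times.

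Its value was the highest for zygotic genes at 22.5 CPM in krt4, 98.2 CPM in krt8, 116 CPM in krt18a.1, 20.1 CPM in TFAP2C, 403 CPM in tbx16 and 13.8 CPM in szl. The same held for FGF8 (ENSDARG00000003399) at 14.1 CPM, ZIC2 at 12.6 CPM (ENSDARG00000015554) and 35.7 CPM (ENSDARG00000037178), SOX11 (ENSDARG00000077811) at 134 CPM and vgll4l at 58.5 CPM. Further genes in which it was the highest were aplnra at 68.5 CPM, apela at 85.0 CPM, CCND1 at 272 CPM, rhoab at 10.5 CPM, BTG1 at 171 CPM, h2ax at 14.1 CPM and hsd17b14 at 2.40 CPM. In the stress and germ plasm lists it was the highest for sesn3 at 9.31 CPM, the amino acid transporter SLC3A2 at 7.81 CPM and TDRD6 at 149 CPM. It was the lowest for SLC25A25 at 827 CPM, SLIRP at 27.6 CPM and ECI1 at 187 CPM. This library also had the largest number of counts of the 8, 3418462. Fits without it are given above for some list counts and calls, but not for fold changes of single genes. In fits without any 1 library, the log2 fold change ran from -5.26 to -3.46 in krt4 and from -4.26 to -2.65 in szl. In vgll4l it ran from -4.97 to -3.45. With all libraries it was -3.80, -2.98 and -3.73 in the same order, and these genes kept their calls in all such fits.

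Oligomycin replicate 1 was the highest for ATP5MG at 265 CPM, AURKB at 1298 CPM, ATP6V0D1 at 129 CPM and polr1g at 30.5 CPM. Oligomycin replicate 2 was the highest for SDHC at 95 CPM and the lowest for HIF1A at 183 CPM. Among untreated libraries, replicate 2 was the highest for SFRP1 at 40.8 CPM and SMAD5 at 431 CPM, replicate 3 the lowest for AXIN2 at 57.8 CPM, and replicate 4 the highest for PRKCD (ENSDARG00000009208) at 294 CPM and the lowest for znf1020 at 8.22 CPM.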

How the results depend on the processing

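With DESeq2 size factors, the DESeq2 Wald test or the title number series as a covariate, every count of calls over all genes and over the maternal classes stayed within 1.5 times its value, which does not hold for the gene lists. Of 118 list counts, 2, 5 and 10 moved further in these 3 fits, 23 with scaling by total counts, 31 in a fit of the 8 libraries only and 40 when sets were blocked. With the series as a covariate, lower mesendoderm factors numbered 3 in place of 6, lower cytosolic ribosomal protein genes 14 in place of 2 and higher heat shock genes 8 in place of 4. In the fit of 8 libraries, lower splicing genes numbered 18 in place of 35 and lower chromatin genes 15 in place of 34. The number higher was 159 in series 2 alone. The number lower was 638 with scaling by total counts, 666 without a filter on low counts, 584 in a fit of the 8 libraries only, 1789 with the library set as a block and 7 in series 2 alone, and ran from 452 to 1277 without any 1 library. All calls numbered 3743 with the set as a block and 166 in series 2 alone, and ran from 1537 to 2750 without any 1 library. Decaying maternal RNAs called higher numbered 130 in series 2 alone. Genes without maternal RNA called lower numbered 5 with at least 10 counts required in each of the 8 libraries and 1 in series 2 alone, and ran from 59 to 125 without any 1 library. Maternal RNAs rising in actinomycin D, 145 of 353 lower, numbered 60 with scaling by total counts, 36 without a filter, 42 in the fit of 8 libraries, 0 in series 2 alone (2 libraries a group), and ran from 41 to 166 without any 1 library. The difference between the series called 0 to 53 genes without any 1 library. GATA5 and tbxta turned to 0.053 and 0.23 in series 2 alone. The cause of these shifts was not tested, except that single series and fits without a library hold fewer libraries.

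The labels give no replicate numbers that the groups share. Deviations of oligomycin and untreated libraries of 1 set of title numbers correlated by 0.0763, 0.494, 0.476 and 0.184. All 4 are positive and 3 exceed 0.1, but oligomycin replicate 1 correlated most with untreated replicate 3, of another set (0.231). The title numbers form 4 sets, each with 1 library of every group. What the sets mark is not stated, so a pairing by set stays a hint. The fit used throughout leaves the sets out, and its p-values do not take them into account. With the set as a block, the genes tbx16, SOX3 and BMP2, not called in the fit used throughout, were called lower (edgeR adjusted p 0.0126, 0.033 and 0.03). Lower cytosolic ribosomal protein genes numbered 42 with that block. Of 190 called genes among 215 followed, 149 kept the call in all fits without 1 library, 172 were called in series 1 alone and 30 in series 2 alone. At this depth 3 counts correspond to 0.901 to 1.88 CPM, so differences below that level were not detectable.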

Other observations

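Further gene groups held members that moved both ways. Of 53 tested genes of ribosome biogenesis and RNA polymerase I, 3 were higher and 10 lower in oligomycin embryos. The polymerase subunit genes polr1e and polr1g averaged 45.9 and 22.2 CPM in oligomycin and 21.5 and 9.37 CPM in untreated embryos. NOP56, a core protein of box C/D particles, averaged 486 CPM in oligomycin and 737 CPM in untreated embryos, and the nucleolar protein npm1a 510 and 734 CPM in the same order. The lower count was 5 without untreated replicate 1, in which the call of npm1a was lost, and 4 without untreated replicate 2. Among Mediator subunits 5 of 30 were higher and 5 lower; the higher count was 3 without replicate 1 of either group or untreated replicate 3, and the lower count was 0 to 3 without untreated replicates 1 or 2 or oligomycin replicates 2, 3 or 4. One MED19 copy (ENSDARG00000009472) had 42.5, 24.2, 31.0 and 15.0 CPM in oligomycin libraries, against 6.91, 4.39, 8.09 and 5.14 CPM in untreated ones (log2 fold change 2.16, edgeR adjusted p 0.000385), while the other (ENSDARG00000037392) was not called, at 188 CPM in oligomycin and 225 CPM in untreated embryos.

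The machinery of mRNA decay had 8 of 76 tested members higher (10.5%) and 6 lower (7.89%), shares near those of all genes, 12.3% and 9.05%. The higher count was 5 without oligomycin replicate 1 or untreated replicate 2, and the lower count was 2 or 3 without replicate 1 of either group, untreated replicate 2 or oligomycin replicate 3, and 11 without oligomycin replicate 4. With scaling by total counts 10 were higher and 2 lower, and with the DESeq2 Wald test 13 were lower. Besides BTG4, patl2, an oocyte protein bound to repressed mRNAs, averaged 632 CPM in oligomycin and 379 CPM in untreated embryos, and LSM1, of the complex that leads mRNAs to decapping, 49.7 and 25.1 CPM in the same order (edgeR adjusted p 0.000472 and 0.0022). YTHDF2, a reader of methylated mRNA that promotes clearance of maternal transcripts in zebrafish, averaged 128 CPM in oligomycin and 194 CPM in untreated embryos (edgeR adjusted p 0.00145). In oxidative defence 5 of 25 were higher and 0 lower, among them SOD1 by 0.56 and GLRX5 by 0.75 on the log2 scale (edgeR adjusted p 0.0018 and 0.00144), with 3 without oligomycin replicates 1 or 3. Fatty acid oxidation had 4 of 28 higher, with ECI1 leading at 243 CPM in oligomycin and 121 CPM in untreated embryos, and 2 without untreated replicate 1 or oligomycin replicate 2. In the yolk syncytial layer list 3 of 7 were lower, and 1 without untreated replicates 1 or 2. HNF4A, of that list, averaged 2.15 CPM in oligomycin and 10.8 CPM in untreated embryos, with overlap between the groups, and its call was lost without untreated replicates 1 or 2.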
